A study of Homo sapiens with 9 samples.

Results

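Interferon-stimulated genes are genes whose transcription rises when a cell is exposed to interferon. A set of 40 was followed by gene symbol through the normalized read counts of HL-60 cells, and all 40 had a row among the 20637 genes of the deposited table. HL-60 is a cell line grown from a human acute myeloid leukaemia, with promyelocyte-like cells. HRA cells are HL-60 cells resistant to cytarabine (Ara-C), a cytidine analogue, and were grown with 100 nM of it. HRD cells are HL-60 cells resistant to daunorubicin (DNR), an anthracycline, and were grown with 30 nM of it. Parental HL-60 cells received neither drug. Each of the 3 groups had 3 libraries, described as biological replicates. The libraries of a resistant line come from that 1 line, and whether it is a clone or a mixed population is not given in the sources used here. Resistance and the presence of the drug therefore cannot be told apart, and no group was treated with interferon according to the labels.

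The 9 libraries held 20822709 to 66563328 reads assigned to genes. Each value is a read count divided by 1 size factor of its library, and it is not corrected for gene length, so levels were compared between groups and not between genes. The promyelocyte markers MPO, AZU1, PRTN3, CTSG, CD33, SPI1 and CEBPE were expressed in every library, whereas ELANE did not exceed 4.06 in any. CTSG, the granule protease cathepsin G, averaged 4120 ± 299 in HRA cells, 6728 ± 282 in HRD cells and 10855 ± 1161 in parental cells (SD, n = 3 each). Of the 7 tested promyelocyte markers CTSG and PRTN3 fell and CD33 and SPI1 rose in HRA against parental cells, and CTSG fell in HRD cells. The sum of the T cell markers CD3D, CD3E and CD2 was 10.96 to 31.1 in HRA, 2.14 to 3.01 in HRD and 17.96 to 18.4 in parental libraries. Of the B cell markers MS4A1 had 1 read in all, and CD79A averaged 4.08 ± 2.48 in HRD, 30.1 ± 9.25 in HRA and 13.6 ± 5.45 in parental cells and fell in HRD against parental cells (log2 −1.60, adjusted p = 0.0304). The epithelial keratin KRT8 averaged 342 ± 60.3 in HRD, 117 ± 31.1 in HRA and 80.2 ± 18.2 in parental cells and rose in HRD cells (log2 2.09, adjusted p = 0.000109), while COL1A1 had 1 read in HRA, 1 in HRD and 0 in parental libraries. The part of these marker levels in the results below was not tested. In bulk RNA, fewer cells expressing a gene and less RNA per cell cannot be told apart.

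Type I interferons bind the receptor of IFNAR1 and IFNAR2, whose kinases JAK1 and TYK2 phosphorylate STAT2. With IRF9 it takes part in a complex that binds the interferon-stimulated response element (ISRE) in promoters, whereas factors activated by interferon-gamma bind the gamma-activated sequence (GAS). The products of the induced genes block viruses at entry, at translation and at release, degrade RNA, sense foreign nucleic acids, or dampen the response itself. Several of these genes are also transcribed at a basal level without added interferon.

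Promoter sequences are shown first because they are the shared feature by which the genes are usually recognised. RefSeq (GRCh38.p14) gave windows from 250 bases before to 50 bases after a transcript start for 32 of the 40 genes. The ISRE core (GAAA, any 2 bases, GAAA), searched on both strands, lay in a window of 21 of these 32 genes (65.6%), against 4.38% of all 27305 genes with a window. The GAS pattern TTCNNNGAA lay in a window of 10 of the 32 (31.2%), against 9.38% of all genes, and in BST2, IFITM1, IFI27 and MX1 it overlapped an ISRE core. A match describes letters in a window and does not show that a factor binds there. The 7 stretches below come from genes of the families whose levels are described next. Each is written 5′ to 3′ along the gene's own strand, with ISRE cores in capitals. A core on the opposite strand reads as TTTC, any 2 bases, TTTC. The BST2 stretch is chr19:17405721-17405780 (minus strand), IFI6 is chr1:27672263-27672362 (minus), IFITM1 is chr11:313980-314043 (plus), IFITM3 is chr11:320861-320935 (minus), IFIT1 is chr10:89392483-89392542 (plus), IFIT3 is chr10:89327827-89327906 (plus) and OAS3 is chr12:112938314-112938373 (plus).
BST2: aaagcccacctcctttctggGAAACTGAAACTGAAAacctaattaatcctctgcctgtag
IFI6: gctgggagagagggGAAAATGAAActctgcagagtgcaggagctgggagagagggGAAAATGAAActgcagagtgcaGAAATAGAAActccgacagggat
IFITM1: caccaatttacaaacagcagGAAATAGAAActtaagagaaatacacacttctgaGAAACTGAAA
IFITM3: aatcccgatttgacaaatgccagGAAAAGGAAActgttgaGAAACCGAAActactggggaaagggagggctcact
IFIT1: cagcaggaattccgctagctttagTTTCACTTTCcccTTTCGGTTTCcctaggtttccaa
IFIT3: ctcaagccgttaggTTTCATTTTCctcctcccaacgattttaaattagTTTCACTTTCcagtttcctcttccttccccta
OAS3: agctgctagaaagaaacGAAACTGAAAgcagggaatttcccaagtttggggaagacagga
BST2 holds 2 overlapping cores, the IFI6 stretch holds 3, and the stretches of IFITM1, IFITM3, IFIT1 and IFIT3 hold 2 each. These neighbouring layouts did not go with 1 direction of change: as given below, BST2 and IFI6 rose in HRA cells, IFITM3 fell there, and IFITM1 and IFIT1 were called in no comparison.

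The genes called against parental cells changed in both directions in each resistant line. Of the 40, 33 reached a normalized value of 10 in 3 or more of the 9 libraries and were tested, and rose or fell is written below only of genes with a limma adjusted p below 0.05 over all 12569 genes tested. In HRA against parental cells 2 of the 33 rose (BST2 and IFI6) and 3 fell (IFITM2, IFITM3 and IFI16), which is 15.2% of the tested members beside 15.2% of all genes tested (9.13% higher and 6.1% lower). The median log2 fold change of the 33 was 0.05, beside −0.01 over all genes, with 19 above 0 and 14 below. With the replicate number as a block 3 rose and 3 fell in this comparison, PARP9 being added (adjusted p = 0.0376). In HRD against parental cells 5 rose (IFIT2, IFIT3, USP18, BST2 and DTX3L) and 5 fell (OAS1, OAS3, EIF2AK2, CMPK2 and IFI35), or 30.3% beside 22.8% of all genes (10.7% higher, 12% lower), with a median of 0.24 beside 0.01. Called or not, 23 of the 33 lay above 0 and 10 below in HRD against parental cells, beside 6423 and 6144 of all genes. Between the 2 resistant lines, HRD against HRA, 7 were higher and 4 lower, or 33.3% beside 30.1% of all genes (13.9% higher, 16.2% lower), with a median of 0.17 beside 0.00.

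Both comparisons with parental cells share the 3 parental libraries. BST2 was the 1 gene called in both, and it rose in each. A further 16 of the 33 were called in none of the 3 comparisons: IFIT1, MX1, MX2, ISG15, HERC5, IFITM1, DDX58, IFIH1, STAT2, IRF1, IRF7, IRF9, PARP9, PARP14, ISG20 and SP110. Some counts depended on single libraries. Without HRD replicate 1 the HRD rises over parental numbered 8, and without HRD replicate 2, HRD replicate 3, parental replicate 2 or parental replicate 3 the falls numbered 3. The HRA rises numbered 1 without HRA replicate 1, HRA replicate 2, parental replicate 1 or parental replicate 2. Between the lines, HRD was higher in 3 genes without HRA replicate 1, HRA replicate 3 or HRD replicate 2 and in 4 without HRD replicate 3, and lower in 2 without HRA replicate 1, HRA replicate 2 or HRD replicate 3.

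**Figure D1:**
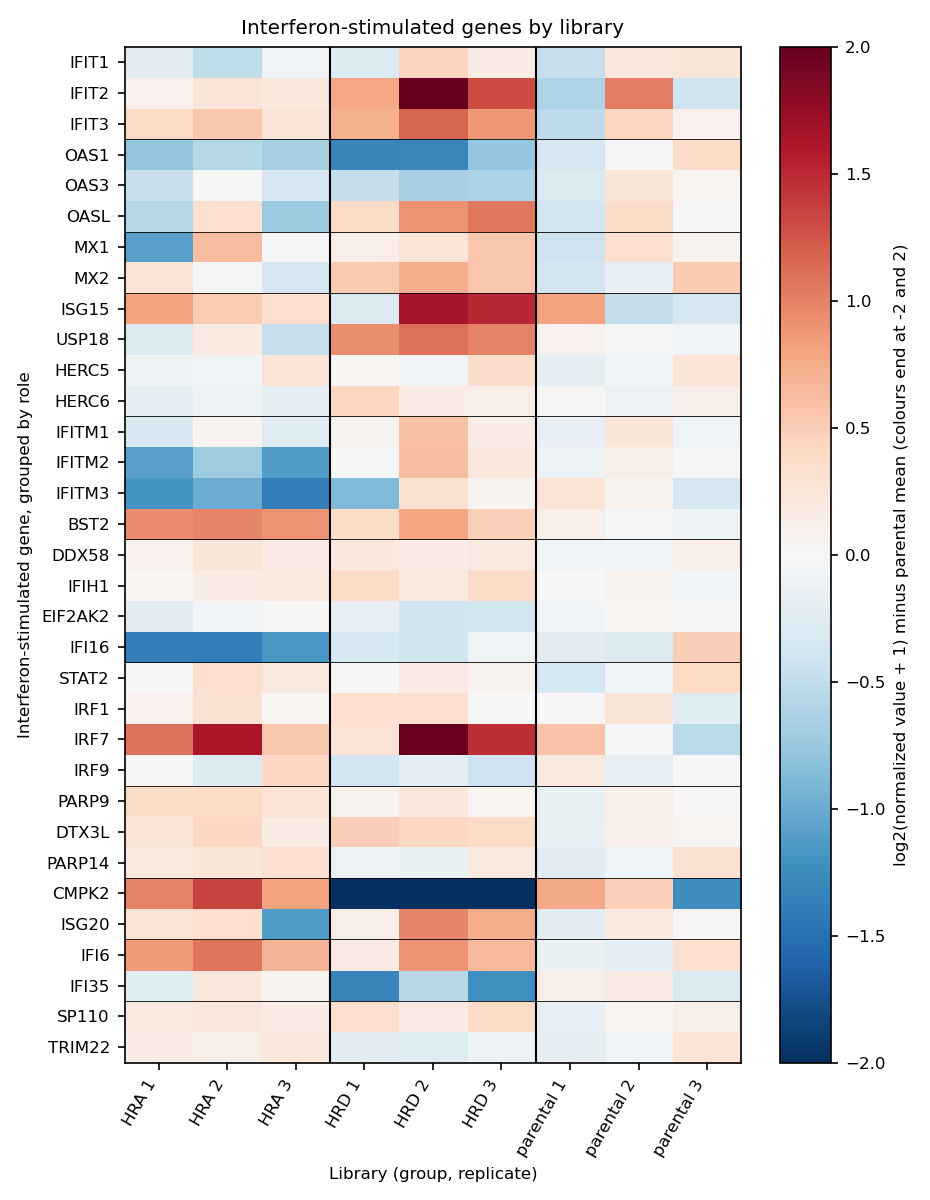
Heat map of the 33 tested interferon-stimulated genes (rows, grouped by role) in the 9 libraries (columns), coloured by log2(normalized value + 1) minus the parental mean, with colours ending at -2 and 2. BST2 and IFI6 are red and IFITM2, IFITM3 and IFI16 blue across the HRA libraries, while USP18, IFIT2 and IFIT3 are red and CMPK2, IFI35 and OAS1 blue across the HRD libraries.

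**Figure D2:**
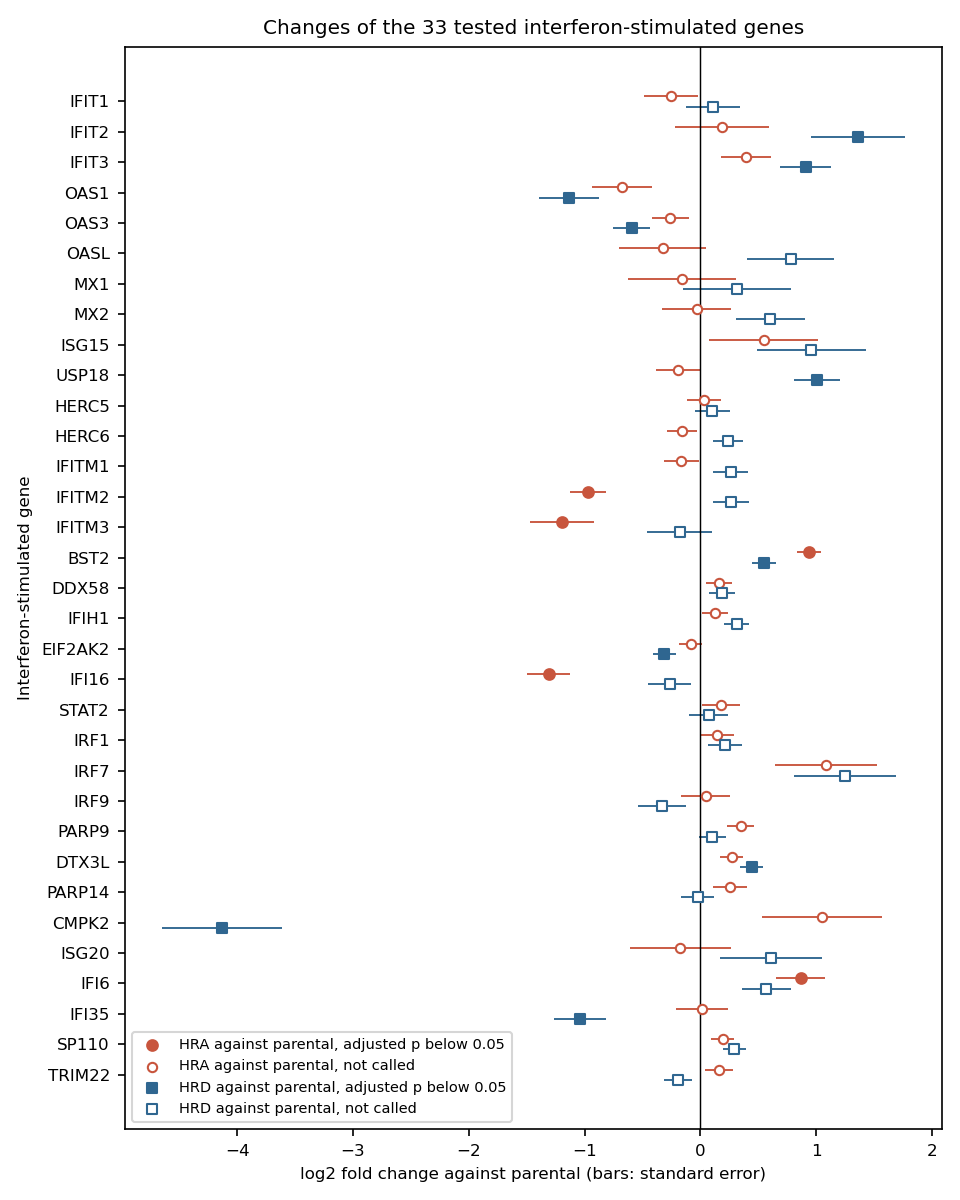
Log2 fold change against parental cells of the 33 tested genes, HRA (circles) and HRD (squares), with bars of 1 standard error; filled symbols have an adjusted p below 0.05. Filled symbols lie on both sides of 0 in each line: 2 right and 3 left for HRA, 5 right and 5 left for HRD.

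The membrane restriction factors changed in opposite directions in HRA cells. BST2 (tetherin, chromosome 19), which holds budding virions at the cell surface, had 5620, 5725 and 5463 normalized reads in HRA cells, 3778, 5055 and 4084 in HRD cells, and 3181, 2888 and 2716 in parental cells. The 3 groups did not overlap and stood in the order HRA, HRD, parental. BST2 was 1.92-fold higher in HRA than in parental cells (log2 0.94 ± 0.11 SE, adjusted p = 0.000327), 1.46-fold higher in HRD than in parental cells (0.55 ± 0.11, adjusted p = 0.00381) and lower in HRD than in HRA cells (log2 −0.39 ± 0.11, adjusted p = 0.0176). The difference between the lines missed the threshold without HRA replicate 1 (adjusted p = 0.0574), HRA replicate 2 (0.0562), HRD replicate 1 (0.0547) or HRD replicate 3 (0.0541). Chromosome 19 as a whole shifted in HRA cells: the median log2 fold change of its 765 other tested protein-coding genes was 0.30, and that of the 20 nearest tested genes of BST2 was 0.42, with 7 called higher and none lower. In HRD cells these medians were 0.02 and 0.11. The part of the chromosome's shift in the BST2 value was not tested.

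IFITM1, IFITM2 and IFITM3 encode small membrane proteins that hinder virus fusion and lie side by side on chromosome 11. IFITM2 had 3414, 4398 and 3333 normalized reads in HRA cells, 7022, 11033 and 8383 in HRD cells and 6742, 7920 and 7045 in parental cells. Every HRA library lay below every library of the other groups. IFITM2 fell 1.96-fold in HRA against parental cells (log2 −0.97 ± 0.16, adjusted p = 0.00234) and was 2.35-fold higher in HRD than in HRA cells (log2 1.23 ± 0.16, adjusted p = 0.000229). IFITM3 had 107, 123 and 93.8 in HRA cells, 133, 304 and 256 in HRD cells and 297, 260 and 195 in parental cells. It fell 2.29-fold in HRA against parental cells (log2 −1.19 ± 0.28, adjusted p = 0.0159), and HRD replicate 1 was close to the HRA libraries while the other HRD libraries lay within or just above the parental range. The HRA fall had adjusted p = 0.0551 without HRA replicate 1, 0.0535 without HRA replicate 3 and 0.0527 without parental replicate 1.

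IFITM3 was also 2.02-fold higher in HRD than in HRA cells (adjusted p = 0.0186), a call that was lost without HRA replicate 1 (0.0539), HRA replicate 3 (0.0629), HRD replicate 2 (0.0656) or HRD replicate 3 (0.0638), and without replicate 2 of every group (0.0869). IFITM1, between them on the chromosome, had 3083, 3929 and 3201 in HRA cells, 3949, 5662 and 4191 in HRD cells and 3392, 4472 and 3584 in parental cells. Its HRA and parental libraries overlapped (log2 −0.16 ± 0.15, adjusted p = 0.490). In HRD against HRA cells it reached log2 0.42 ± 0.15 with an adjusted p of 0.0522, and it passed under 8 of 20 alternatives. Among them were limma with the replicate block (adjusted p = 0.00117), DESeq2 (0.0245) and total-read scaling (0.0263). IFITM1 also passed without HRA replicate 2 (0.0381), HRD replicate 1 (0.0388) or parental replicate 2 (0.0410). The 15 nearest tested genes of IFITM2, IFITM1 and IFITM3 included, had a median of 0.11 in HRA cells. The 3 transcripts share sequence: of 50-base words, 42.3% of those of IFITM1 (39.0% with IFITM2), 15.8% of those of IFITM2 and 20.3% of those of IFITM3 occur in another gene, so the counting could have split or dropped reads among them.

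The IFIT genes form a cluster on chromosome 10 and encode proteins that bind foreign RNA and block its translation. Of them IFIT2 and IFIT3 rose in HRD against parental cells. IFIT3 had 250, 277 and 227 normalized reads in HRA cells, 313, 426 and 346 in HRD cells and 132, 256 and 202 in parental cells. The HRD libraries lay above all others, and IFIT3 rose 1.88-fold in HRD against parental cells (log2 0.91 ± 0.22, adjusted p = 0.0120, called under all 20 alternative settings). In HRA against parental cells its log2 fold change was 0.40 ± 0.22 with adjusted p = 0.244. HRD against HRA cells had log2 0.52 ± 0.22 for IFIT3, which was not called (adjusted p = 0.0963). That difference passed with the replicate block (0.0304), with only the 2 groups in the fit (0.0323) or without parental replicate 1 (0.0337). IFIT2 had 69.8, 78.5 and 75.5 in HRA cells, 112, 267 and 164 in HRD cells and 42.1, 134 and 49.5 in parental cells. Replicate 2 was the highest library in each group, at 1.08, 1.93 and 2.92 times the mean of replicates 1 and 3 in HRA, HRD and parental cells, and the HRD and parental libraries overlapped.

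IFIT2 rose 2.57-fold in HRD against parental cells (log2 1.36 ± 0.40, adjusted p = 0.0319) and was 2.26-fold higher in HRD than in HRA cells (log2 1.18 ± 0.40, adjusted p = 0.0469). The rise over parental cells was lost without HRD replicate 2 (0.118), HRD replicate 3 (0.0701), parental replicate 1 (0.108) or parental replicate 3 (0.107), with only the 2 groups in the fit (0.0648) and without the variance trend (0.0678). The difference from HRA cells was lost without HRA replicate 1 (0.119), HRA replicate 2 (0.0885), HRA replicate 3 (0.0961), HRD replicate 2 (0.152) or HRD replicate 3 (0.0906). IFIT1 had 178, 146 and 200 in HRA cells, 172, 283 and 231 in HRD cells and 150, 240 and 246 in parental cells, which overlapped throughout. IFIT5 was too low to be tested, with 11 reads over the HRA, 36 over the HRD and 14 over the parental libraries. The 20 nearest tested genes of IFIT2 include IFIT1 and IFIT3. Their median log2 fold change was −0.39 in HRD against parental cells, with 10 called lower and 3 higher. RefSeq places all 4 IFIT genes within the range of LIPA.

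The OAS enzymes, which make 2′-5′ oligoadenylates from ATP, moved the other way in HRD cells. OAS1 had 39.1, 46.0 and 42.6 normalized reads in HRA cells, 26.8, 27.1 and 39.5 in HRD cells and 53.9, 67.5 and 88.4 in parental cells. The libraries of neither resistant line overlapped the parental ones. OAS1 fell 2.197-fold in HRD against parental cells (log2 −1.14 ± 0.26, adjusted p = 0.00873), and in HRA cells its log2 fold change was −0.68 ± 0.26 with adjusted p = 0.0986. OAS3 had 334, 450 and 359 in HRA cells, 326, 285 and 292 in HRD cells and 372, 539 and 465 in parental cells. It fell 1.51-fold in HRD against parental cells (log2 −0.59 ± 0.16, adjusted p = 0.0212), without overlap.

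The OAS1 fall in HRD cells was lost without replicate 2 of every group (adjusted p = 0.0783). The OAS3 fall was lost without HRD replicate 2 (0.0646), HRD replicate 3 (0.0590), parental replicate 2 (0.0806) or parental replicate 3 (0.0586), and without replicate 2 of every group (0.146). Of the 20 nearest tested genes of OAS1, OAS3 included, 10 fell and 1 rose in HRD against parental cells, with a median of −0.31. The median of chromosome 12 was −0.28. OASL, an OAS relative without that enzymatic activity, had 19.8, 28.6 and 32.1 in HRD cells, 9.77, 18.9 and 8.53 in HRA cells and 11.2, 19.6 and 15.0 in parental cells. It was 2.15-fold higher in HRD than in HRA cells (log2 1.11 ± 0.38, adjusted p = 0.0453), although it lies on the same chromosome, whose median in that comparison was −0.24. That call was lost under 11 of 20 alternatives, among them edgeR (0.0505), DESeq2 (0.0780) and leaving out HRA replicate 1 (0.141), HRA replicate 3 (0.145), HRD replicate 2 (0.107), HRD replicate 3 (0.128), parental replicate 2 (0.0511) or parental replicate 3 (0.0515). OAS2 had 1, 4 and 3 reads in all over HRA, HRD and parental libraries.

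MX1 and MX2, dynamin-like GTPases that trap viral nucleocapsids, were called in no comparison. MX1 ranged from 3.49 to 13.5 in HRA, 9.43 to 12.8 in HRD and 6.17 to 11.04 in parental cells. MX2 had 36.2, 42.2 and 36.3 in HRD cells, just above the 30.0, 24.4 and 19.5 of HRA cells and the 19.1, 22.1 and 35.97 of parental cells, and the comparison of HRD with parental cells missed the threshold (log2 0.60 ± 0.30, adjusted p = 0.176).

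**Figure D3:**
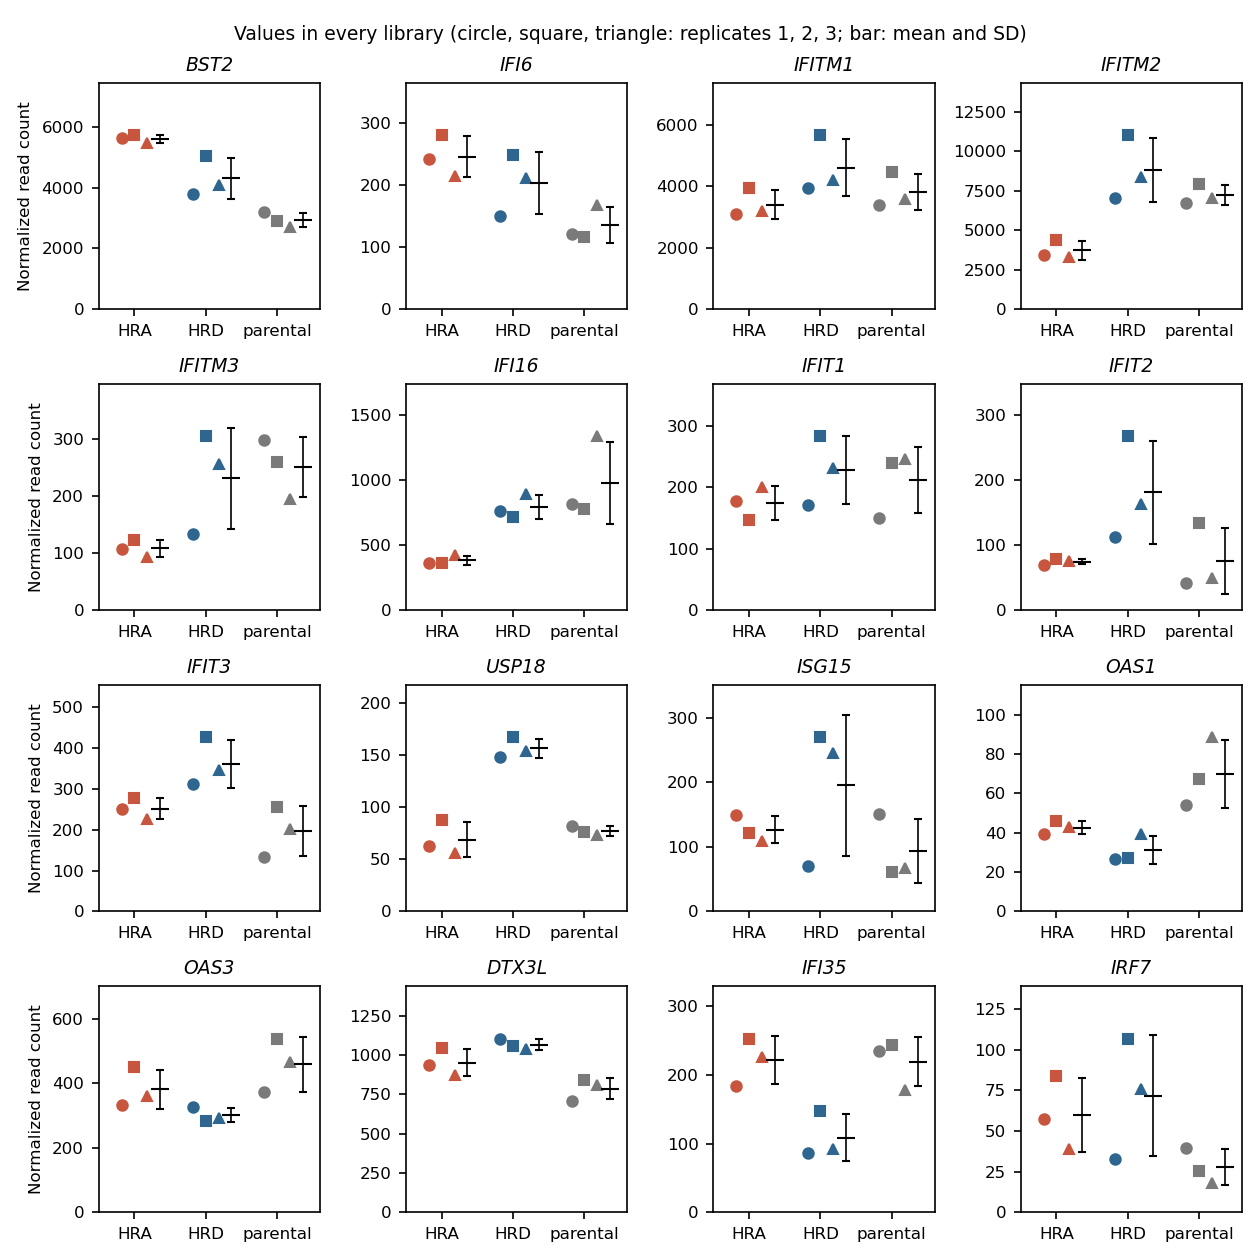
Normalized read count of 16 interferon-stimulated genes in every library of HRA, HRD and parental cells, with replicates 1, 2 and 3 as circle, square and triangle and the mean and SD as a bar. BST2, IFITM2, IFI16, USP18 and IFI35 each separate at least 1 resistant line from parental cells without overlap, whereas ISG15, IFIT1 and IRF7 overlap between groups.

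USP18 rose in HRD cells, with little spread between replicates. It encodes the protease that removes ISG15 from proteins and binds IFNAR2 to dampen signalling. It had 149, 167 and 154 normalized reads in HRD cells, 62.8, 87.9 and 56.0 in HRA cells and 82.5, 76.1 and 73.4 in parental cells. The HRD libraries lay above all others, and USP18 was 2.01-fold higher than in parental cells (log2 1.01 ± 0.20, adjusted p = 0.00395) and 2.29-fold higher than in HRA cells (log2 1.20 ± 0.20, adjusted p = 0.00119). Both calls held under all 20 alternatives. Of the 50-base words of USP18, 23.4% occur in another gene, nearly all of them in USP41, so the counting of reads in that stretch is uncertain.

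ISG15, the ubiquitin-like modifier itself, varied widely within groups. It had 149, 122 and 108 in HRA cells, 69.9, 270 and 246 in HRD cells and 150, 61.3 and 67.4 in parental cells. The highest HRD library was 3.85 times the lowest, and all groups overlapped (HRD against parental log2 0.96 ± 0.47, adjusted p = 0.173). Without HRD replicate 1 the log2 fold change was 1.58 with adjusted p = 0.0104. HERC5, the ligase that attaches ISG15, had 861 to 1105 in HRA, 877 to 1174 in HRD and 805 to 1106 in parental cells. HERC6, its relative, had 376, 310 and 307 in HRD cells, 244, 261 and 245 in HRA cells and 283, 256 and 300 in parental cells. It was 1.32-fold higher in HRD than in HRA cells (log2 0.40 ± 0.13, adjusted p = 0.0373), which was lost without HRA replicate 1 (0.115), HRA replicate 2 (0.0661), HRA replicate 3 (0.0988), HRD replicate 1 (0.108) or HRD replicate 2 (0.0525).

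Among the sensors of nucleic acids, IFI16 fell in HRA cells. IFI16 binds DNA in the nucleus and cytoplasm and belongs to the PYHIN family. It had 362, 363 and 424 normalized reads in HRA cells, 767, 717 and 894 in HRD cells and 817, 778 and 1338 in parental cells. The HRA libraries lay below all others, at 2.48-fold lower than parental cells (log2 −1.31 ± 0.18, adjusted p = 0.00114), and HRD cells were 2.06-fold higher than HRA cells (log2 1.05 ± 0.18, adjusted p = 0.00183). These calls held under all 20 alternatives. HRD and parental libraries overlapped (log2 −0.26 ± 0.18, adjusted p = 0.346).

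The PYHIN genes beside IFI16 on chromosome 1, chosen after their values were seen, differed from it in the comparisons with parental cells, whereas all were higher in HRD than in HRA cells. MNDA, a nuclear antigen of myeloid cells, had 5327, 5308 and 5895 in HRD cells, 1956, 1586 and 2098 in HRA cells and 1186, 1304 and 2082 in parental cells. MNDA rose in HRD against parental cells (log2 1.90 ± 0.18, adjusted p = 3.38e-05), and so did AIM2, the cytosolic DNA sensor that starts an inflammasome (log2 2.33 ± 0.43, adjusted p = 0.00302, 36.7, 49.7 and 33.1 in HRD against 4.49, 4.91 and 15.0 in parental cells). In HRA against parental cells MNDA had a log2 fold change of 0.34 and AIM2 of −0.05, and neither was called, though MNDA passed without parental replicate 3 (adjusted p = 0.0137). In HRD against HRA cells MNDA was higher by log2 1.56 ± 0.18 (adjusted p = 0.000131) and AIM2 by 2.37 ± 0.43 (0.00217), beside 1.05 for IFI16. Of the 20 nearest tested genes of IFI16, MNDA and AIM2 included, 11 were higher and 1 lower there, with a median of 0.42. In HRA against parental cells 5 of these 20 fell and none rose, with a median of −0.11. The part of these shifts in the IFI16 value was not tested. RefSeq places IFI16 and AIM2 in overlapping ranges.

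EIF2AK2 (PKR), the kinase that halts translation on double-stranded RNA, had 926, 1047 and 1108 in HRA cells, 972, 818 and 838 in HRD cells and 1048, 1117 and 1088 in parental cells. Its fall in HRD against parental cells was 1.24-fold (log2 −0.31 ± 0.10, adjusted p = 0.0450) and was lost under 15 of 20 alternatives, with adjusted p from 0.0185 to 0.322. Leaving out any single HRA library (0.0537, 0.0621 and 0.0562), HRD replicate 2 (0.146), HRD replicate 3 (0.117) or any single parental library (0.0673, 0.120 and 0.0945) was among them. The RNA helicases DDX58 (RIG-I) and IFIH1 (MDA5) were not called in any comparison by limma. DDX58 ranged from 336 to 376 in HRA, 352 to 368 in HRD and 299 to 348 in parental cells. IFIH1 had 499, 429 and 487 in HRD cells, above the 375, 399 and 363 of parental cells, with log2 0.31 ± 0.11 and adjusted p = 0.0606. It was called in that comparison by DESeq2 (adjusted p = 0.0385) and in limma without the variance trend (0.0446).

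None of the transcription factors that carry the response was called in any comparison by limma, and IRF7 had the largest fold changes over parental cells among them. STAT2 averaged 764 ± 84.6 in HRA, 706 ± 42.1 in HRD and 687 ± 184 in parental cells, and IRF1 averaged 454 ± 46.8, 476 ± 57.1 and 413 ± 68.7 in the same order (SD, n = 3 each). IRF9 averaged 100.4 ± 25.2 in HRA, 75.8 ± 6.15 in HRD and 95.8 ± 11.9 in parental cells, but its transcript lies wholly within an annotated readthrough gene (GENCODE v29). IRF7, the factor that amplifies interferon production, had 57.2, 83.9 and 39.0 in HRA cells, 32.7, 107 and 75.9 in HRD cells and 39.8, 25.8 and 17.99 in parental cells. Its log2 fold changes over parental cells were 1.08 ± 0.44 in HRA (adjusted p = 0.123) and 1.251 ± 0.443 in HRD cells (adjusted p = 0.0636). HRD replicate 1 lay inside the parental range. The HRD value passed without HRD replicate 1 (0.0134) or parental replicate 1 (0.0486), and with DESeq2 (0.0244).

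DTX3L, PARP9 and PARP14 neighbour each other on chromosome 3. DTX3L is a ubiquitin ligase that pairs with PARP9 in DNA damage repair and in the interferon response, and PARP14 is a mono-ADP-ribosyltransferase. DTX3L had 1104, 1059 and 1036 normalized reads in HRD cells, 936, 1042 and 872 in HRA cells and 710, 839 and 808 in parental cells. Neither resistant line overlapped parental cells, and DTX3L rose 1.36-fold in HRD cells (log2 0.44 ± 0.10, adjusted p = 0.00851), while HRA cells had log2 0.27 ± 0.10 and adjusted p = 0.0876. PARP9 had 447, 453 and 423 in HRA cells, 362, 399 and 354 in HRD cells and 310, 378 and 352 in parental cells. In HRA against parental cells PARP9 had log2 0.35 ± 0.12 with adjusted p = 0.0631, or 0.0376 with the replicate number as a block and 0.0397 by DESeq2. PARP14 averaged 607 ± 30.2 in HRA, 503 ± 63.6 in HRD and 515 ± 102 in parental cells and was not called. The ranges of PARP9 and DTX3L overlap in RefSeq, and whether reads were counted by strand is not given in the sources used here.

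Of the 33 tested interferon-stimulated genes CMPK2 had the lowest log2 fold change in HRD against parental cells. It encodes a mitochondrial kinase of pyrimidine nucleoside monophosphates and lies on chromosome 2. It had 39.1, 50.1 and 34.1 normalized reads in HRA cells, 0.496, 0 and 0 in HRD cells and 33.1, 27.0 and 7.49 in parental cells. A single read was found over the 3 HRD libraries, against 121 over the HRA and 86 over the parental libraries. Scaled for depth, HRD cells had 0.0105 times the parental level (95% exact counting interval 0.000263 to 0.0601) and 0.00684 times the HRA level (0.000172 to 0.0388). These intervals cover counting error only. The limma adjusted p was 0.000245 for HRD against parental and 4.77e-05 for HRD against HRA cells, and CMPK2 was called under all 20 alternatives. HRA libraries lay above the parental ones, with log2 1.05 ± 0.52 and adjusted p = 0.193.

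The next tested gene along chromosome 2, RNF144A, was also nearly absent in HRD cells; it encodes a ubiquitin ligase and was chosen after its values were seen. RNF144A had 0, 0 and 1.07 in HRD cells, against 43.8, 77.3 and 46.5 in parental cells (adjusted p = 2.30e-06), and 156, 175 and 140 in HRA cells. It rose in HRA against parental cells (log2 1.52 ± 0.36, adjusted p = 0.0177), a call lost without HRA replicate 1 (0.0731), HRA replicate 2 (0.0762), parental replicate 1 (0.0598) or parental replicate 3 (0.0569), and without replicate 2 of every group (0.0531). The 18 nearest tested genes of CMPK2, RNF144A included, had a median of 0.05 in HRD against parental cells. RSAD2 (viperin), an antiviral radical SAM enzyme whose range overlaps that of CMPK2, had 3 reads over the HRA, 0 over the HRD and 2 over the parental libraries, which allows no comparison. ISG20, an exonuclease of single-stranded RNA, ranged from 4.87 to 14.9 in HRA, 12.9 to 24.1 in HRD and 10.1 to 13.5 in parental cells and was not called.

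IFI35 fell in HRD cells together with its surroundings. This leucine-zipper protein is encoded on chromosome 17, and it had 85.8, 148 and 91.9 normalized reads in HRD cells, 184, 253 and 227 in HRA cells and 235, 244 and 178 in parental cells. IFI35 was 2.05-fold lower in HRD than in parental cells (log2 −1.04 ± 0.22, adjusted p = 0.00700) and 2.08-fold lower than in HRA cells (log2 −1.05 ± 0.22, adjusted p = 0.00535), without overlap and under all 20 alternatives. Of its 20 nearest tested genes, 18 also fell in HRD against parental cells and none rose, with a median of −0.84 beside −0.19 for all of chromosome 17. In HRA cells 1 of the 20 rose and 1 fell, with a median of −0.10. Whether the IFI35 value has the same origin as that of its neighbours was not tested.

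**Figure D4:**
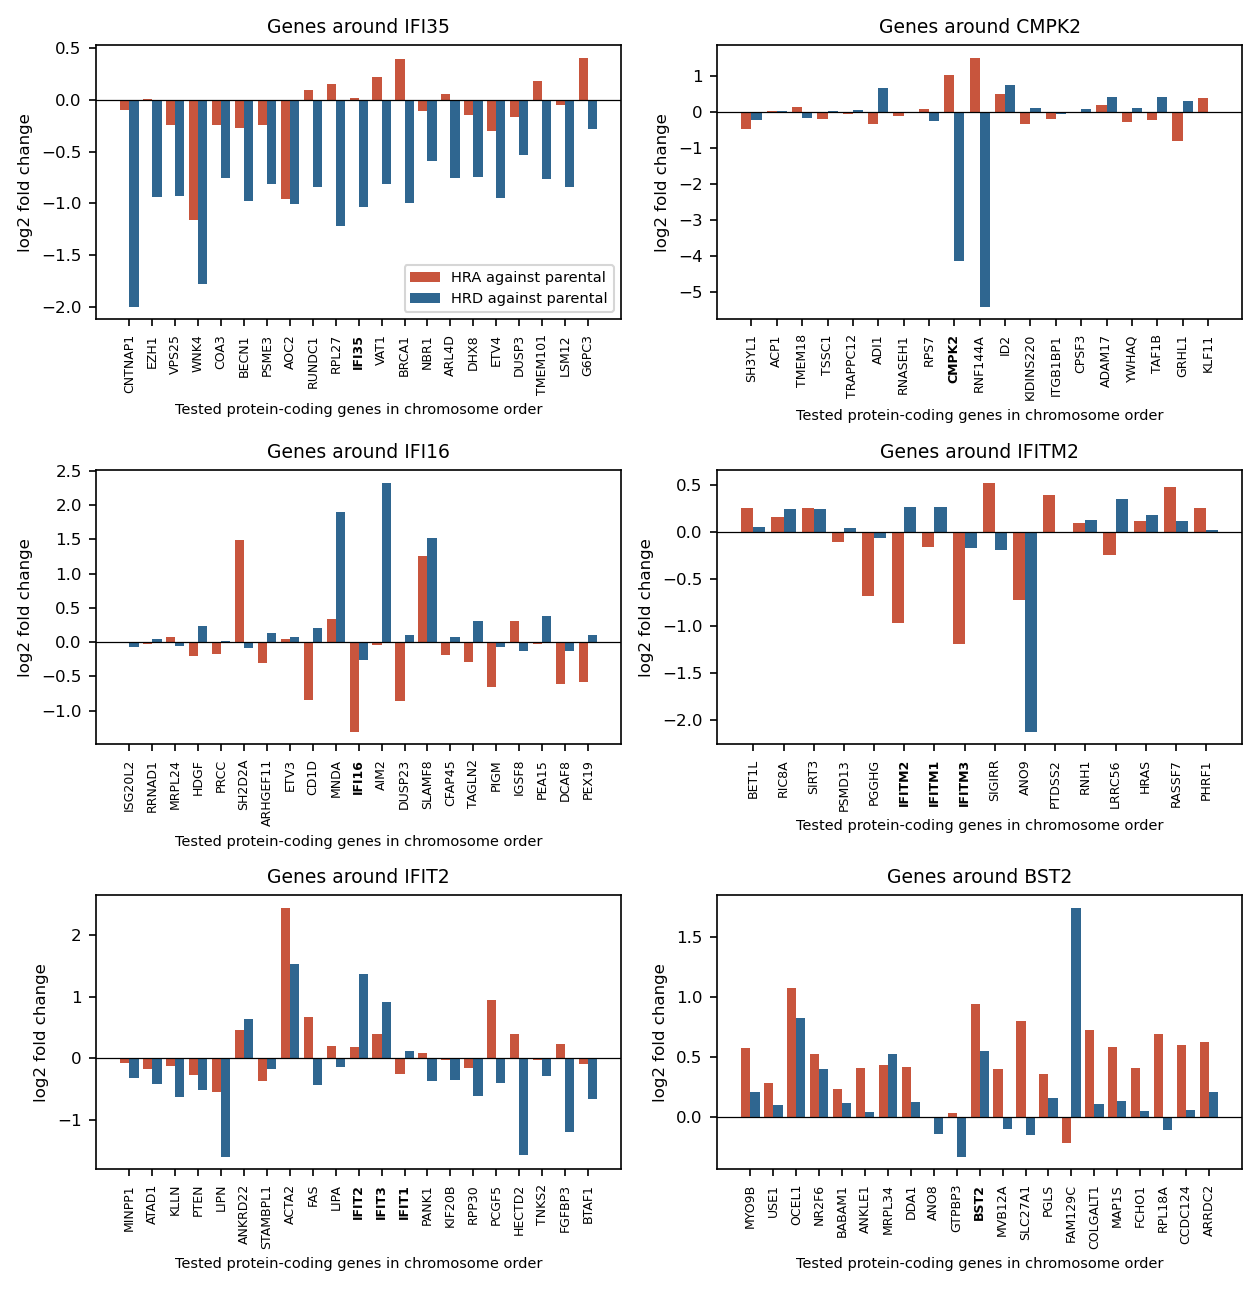
Log2 fold change against parental cells of tested protein-coding genes in chromosome order around 6 interferon-stimulated genes (bold), HRA in red to the left of HRD in blue for each gene. Around IFI35 the HRD bars are nearly all below 0, around CMPK2 only CMPK2 and RNF144A drop far below 0 in HRD cells, and around IFIT2 the IFIT2 and IFIT3 bars stand above most neighbours.

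IFI6, a mitochondrial and endoplasmic reticulum protein that opposes apoptosis and flavivirus replication, rose in HRA cells. IFI6 had 242, 280 and 214 normalized reads in HRA cells, 149, 248.6 and 211 in HRD cells and 121, 117 and 168 in parental cells. It was 1.82-fold higher in HRA than in parental cells without overlap (log2 0.87 ± 0.21, adjusted p = 0.0202). The call was lost without HRA replicate 1 (0.0687), HRA replicate 2 (0.0827), parental replicate 1 (0.0581) or parental replicate 2 (0.0657), and without replicate 2 of every group (0.144). In HRD against parental cells IFI6 had log2 0.57 ± 0.21 with adjusted p = 0.0788, and it passed without HRD replicate 1 (0.0225) or parental replicate 3 (0.0430).

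TRIM22, a ubiquitin ligase that represses viral transcription, had 569, 560 and 624 in HRD cells, 740, 726 and 775 in HRA cells and 581, 637 and 805 in parental cells. It was 1.28-fold lower in HRD than in HRA cells (log2 −0.36 ± 0.12, adjusted p = 0.0473), and the call was lost under 11 of 20 alternatives, among them leaving out any single HRA library (0.113, 0.0884 and 0.130), any single HRD library (0.101, 0.114 and 0.0573) or parental replicate 2 (0.0595), and scaling by total reads (0.120). SP110, a nuclear body protein, had 1115, 987 and 1155 in HRD cells, 1008, 1038 and 984 in HRA cells and 792, 913 and 955 in parental cells. SP110 did not overlap between HRD and parental cells but missed the threshold (log2 0.29 ± 0.10, adjusted p = 0.0538), passing without HRD replicate 2 (0.0430) or parental replicate 3 (0.0467) and by edgeR (0.0495).

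Several genes commonly used as markers of an interferon response had few or no reads. IFI44L had 0 reads in the HRA, 0 in the HRD and 1 in the parental libraries, IFI44 had 4, 10 and 18 in the same order, and IFI27 had 8, 9 and 7. XAF1, a partner of the apoptosis inhibitor XIAP, had 1 read in HRA, 8 in HRD and 1 in parental libraries. With 3 reads over a group as the floor of detection, RSAD2 and IFI44L gave no fold in any comparison.

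The other genes of the interferon pathway were read from the same fit, as a list of 100 of which 78 had a row and 59 were tested. In HRA against parental cells 13 of the 59 rose and none fell, by limma, or 22.0% beside 15.2% of all genes. The median log2 fold change was 0.14 beside −0.01 over all genes. At an unadjusted limma p below 0.05 there were 23 of the 59 in either direction, beside 3929 of all 12569 genes tested. With the replicate number as a block 15 rose and 1 fell, edgeR gave 13 and 0, and DESeq2 gave 12 and 1. Without HRA replicate 1 or HRA replicate 2 the rises numbered 7, as they did without replicate 2 of every group. In HRD against parental cells 18 rose and 4 fell, or 37.3% beside 22.8% of all genes (median 0.16 beside 0.01), and the rises numbered 11 without HRD replicate 2, without parental replicate 1 or without replicate 2 of every group, and 12 without parental replicate 3. In HRD against HRA cells 8 were higher and 10 lower, or 30.5% beside 30.1% of all genes (median −0.07 beside 0.00). The higher genes numbered 4 without HRA replicate 1, 3 without HRA replicate 3 and 5 without HRD replicate 2, and the lower genes 6 without HRA replicate 2. Of the 10 tested sensors and adaptors 2 fell in HRD against parental cells, DHX58 and, named after its value was seen, IKBKE, a kinase of IRF3. Of the 27 other interferon-stimulated genes 6 rose in HRA cells, and 7 rose and 1 fell in HRD cells.

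Of the 21 interferon ligand genes, IFNA5 had 1 read in all and IFNB1 had 2 in HRA, 2 in HRD and 0 in parental libraries, and the other 19 were not analysed here. All 5 tested receptor genes rose in HRD against parental cells and 3 of 5 rose in HRA cells, beside 10.7% of all genes called higher in HRD and 9.13% in HRA cells. IFNAR1 had 3961, 4252 and 3358 normalized reads in HRA cells, 3226, 3537 and 3247 in HRD cells and 2542, 2811 and 2618 in parental cells, without overlap of either line with parental cells. Its log2 fold change was 0.53 ± 0.09 in HRA (adjusted p = 0.00397) and 0.33 ± 0.09 in HRD cells (adjusted p = 0.0280), the HRD rise being lost without HRD replicate 2 (0.0976), HRD replicate 3 (0.0509), parental replicate 1 (0.0799) or parental replicate 3 (0.0700).

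IFNAR2, the other chain of the type I receptor, averaged 864 ± 87.1 in HRA, 892 ± 59.5 in HRD and 613 ± 62.1 in parental cells (SD, n = 3 each). It rose by log2 0.49 ± 0.11 in HRA (adjusted p = 0.0142, lost without HRA replicate 1 at 0.0559 or HRA replicate 2 at 0.0680) and 0.54 ± 0.11 in HRD cells (adjusted p = 0.00564). IFNGR1, the ligand-binding chain for interferon-gamma on chromosome 6, averaged 3764 ± 124 in HRA, 4758 ± 396 in HRD and 3340 ± 233 in parental cells and rose in HRD cells (log2 0.51 ± 0.08, adjusted p = 0.00159). IL10RB, a chain shared with the receptors of interferon-lambda and interleukin-10, rose by log2 0.90 ± 0.21 in HRA cells (adjusted p = 0.0144) and 0.79 ± 0.21 in HRD cells (0.0178). The HRA rise of IL10RB was lost without HRA replicate 2 (0.0627) or parental replicate 3 (0.0531), and the HRD rise without HRD replicate 2 (0.0616), parental replicate 1 (0.0598) or parental replicate 3 (0.0661). IFNGR2 rose in HRD cells (log2 0.68 ± 0.15, adjusted p = 0.00796) and had log2 0.41 ± 0.15 in HRA cells (adjusted p = 0.0911, 0.00353 with the replicate block and 0.0400 without parental replicate 2).

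IFNAR1, IFNAR2, IFNGR2 and IL10RB lie together on chromosome 21. The 20 nearest tested genes of IFNAR1 include IFNAR2, IFNGR2 and IL10RB themselves. Of these 20, 15 rose in HRD and 8 in HRA against parental cells and none fell. The medians of the whole chromosome were 0.33 in HRD and 0.17 in HRA cells, and the part of this shift in the receptor values was not tested. STAT3, a transducer of interleukin-6 family signals on chromosome 17, fell in HRD against parental cells (log2 −0.63 ± 0.11, adjusted p = 0.00218). Of the 20 nearest tested genes of STAT3, 17 fell there and none rose, with a median of −0.87. The part of this shift in the STAT3 value was not tested. JAK1 rose by log2 0.32 ± 0.09 in HRA cells (adjusted p = 0.0346), which was lost without any single HRA library (0.105, 0.144 and 0.0526), parental replicate 1 (0.1001) or parental replicate 3 (0.0676), and TYK2, the partner kinase, averaged 1342 ± 91.7 in HRA, 1162 ± 266 in HRD and 1124 ± 206 in parental cells and was not called. IRF8 was not analysed here.

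Of the 12 interferon-gamma targets listed 5 were tested, and 3 of these rose in each line over the shared parental libraries: FCGR1A, GBP2 and CXCL10. Over all genes tested, 9.13% were called higher in HRA and 10.7% in HRD cells. FCGR1A, the high-affinity IgG receptor of myeloid cells, had 637, 981 and 552 normalized reads in HRA cells, 206, 274 and 201 in HRD cells and 103, 139 and 142 in parental cells. It rose by log2 2.46 ± 0.22 in HRA cells (adjusted p = 8.25e-05) and 0.82 ± 0.22 in HRD cells (0.0204, lost without HRD replicate 2 at 0.0768 or parental replicate 1 at 0.0702), and near-identical gene copies make its counting uncertain. CXCL10, a chemokine for activated T cells, had 23.04, 40.6 and 14.6 in HRA cells, 9.92, 39.2 and 16.03 in HRD cells and 1.12, 7.36 and 1.499 in parental cells. Its log2 fold changes were 2.82 ± 0.63 (adjusted p = 0.0131) in HRA and 2.47 ± 0.63 (0.0161) in HRD cells, with losses without HRA replicate 2 (0.0607) for HRA, and without HRD replicate 2 (0.0665), parental replicate 1 (0.0570) or parental replicate 3 (0.0550) for HRD. Without parental replicate 2 the log2 fold changes of CXCL10 were 3.44 in HRA and 3.09 in HRD cells.

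GBP2, a guanylate-binding GTPase, averaged 748 ± 193 in HRA, 857 ± 203 in HRD and 369 ± 170 in parental cells. It rose in HRD cells (log2 1.31 ± 0.33, adjusted p = 0.0148, 0.0574 without HRD replicate 3). Its HRA rise (log2 1.12 ± 0.33, adjusted p = 0.0425) was lost under 12 of 20 alternatives, among them leaving out HRA replicate 1 (0.0775), HRA replicate 2 (0.154), HRA replicate 3 (0.0723), HRD replicate 3 (0.0505), parental replicate 1 (0.0867) or parental replicate 2 (0.0562).

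UBE2L6 and UBA7, enzymes that carry and activate ISG15, rose in HRA cells, UBA7 being chosen after its values were seen. ISG15 itself, its ligase HERC5 and its protease USP18 were not called in HRA against parental cells. UBE2L6, the conjugating enzyme, had 840, 989 and 920 normalized reads in HRA cells, 297, 380 and 244 in HRD cells and 425, 458 and 295 in parental cells. It was higher in HRA than in parental cells by log2 1.24 ± 0.19 (adjusted p = 0.00180), and HRD against HRA cells had log2 −1.60 ± 0.19 (adjusted p = 0.000153). UBA7, the activating enzyme, had 229, 306 and 277 in HRA cells, 163, 191 and 182 in HRD cells and 157, 164 and 141 in parental cells and rose in HRA cells (log2 0.80 ± 0.15, adjusted p = 0.00566, 0.0558 without replicate 2 of every group). DHX58 (LGP2), a regulator of the RNA helicases, averaged 47.5 ± 23 in HRD, 97.6 ± 17.8 in HRA and 85.1 ± 7.25 in parental cells. Its fall in HRD against parental cells (log2 −0.92 ± 0.29, adjusted p = 0.0418) was lost under 10 of 20 alternatives, among them leaving out HRA replicate 1 (0.0597), HRA replicate 3 (0.0570), HRD replicate 1 (0.125), HRD replicate 3 (0.119) or any single parental library (0.0825, 0.107 and 0.0764). DHX58 lies on chromosome 17, and of its 20 nearest tested genes 17 fell in HRD against parental cells and none rose, with a median of −0.84. The part of this shift in the DHX58 value was not tested.

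**Figure D5:**
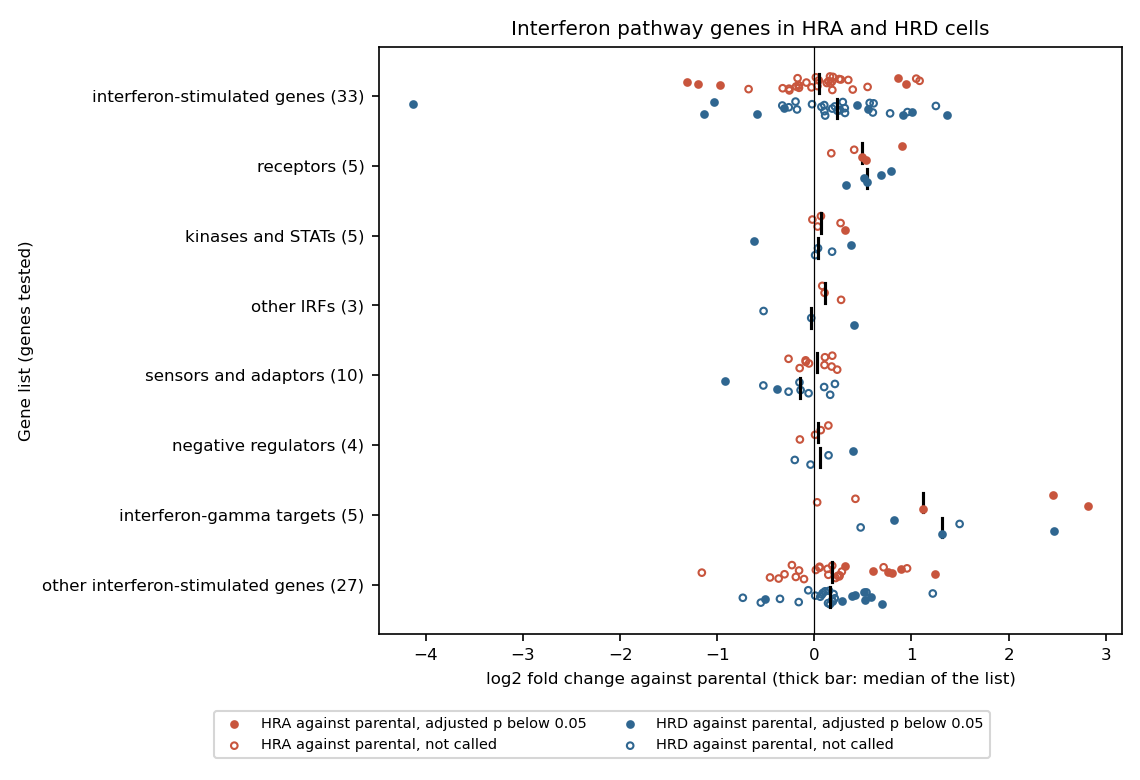
Log2 fold change against parental cells of the tested genes of each list, HRA above HRD within a list, with filled points for an adjusted p below 0.05 and a thick bar at the list's median. All 5 receptor genes and 3 of 5 interferon-gamma targets are filled and right of 0 for HRD cells, while the 33 interferon-stimulated genes spread on both sides of 0.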

How the data were processed

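Polyadenylated RNA of 3 HRA, 3 HRD and 3 parental HL-60 libraries was sequenced with a stranded kit, per the labels. The build hg19 and the tools HTSeq 0.11.1, DESeq2, Cufflinks 2.2.1, Bowtie2 2.3.5.1, Picard and TopHat2 2.1.1 are listed, with no role, in the submitters' processing notes; annotation and strand setting are not given in the sources used here. The deposited signal values are reads per gene scaled by 1 size factor for each library; whole reads were recovered for 100% of values (tolerance 0.001). The series states biological replicates but not separate cultures, so p-values measure the spread between these libraries, which may be in part technical.

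The 12569 genes that reached a value of 10 in 3 or more of 9 libraries were fitted together as log2(value + 1), using limma 3.58.1 and its variance trend under R 4.3.3, with Benjamini-Hochberg adjustment over all of them, and called below 0.05. Fold changes on this scale understate those of low genes. Errors beside fold changes are standard errors, and beside means SDs. With 3 libraries a group, exact permutation gives no p under 0.1. edgeR 4.0.16 and DESeq2 1.42.0 were run on recovered reads, and other scalings, pseudocounts, filters and fits and leaving out libraries were tried, 20 alternatives in all. Leaving out replicate 2 of every group was added after seeing the data.

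Deviations of same-numbered HRA and parental libraries correlated at 0.22, 0.38 and 0.14, and the block is given beside results it changes. Libraries of different numbers were not correlated, so these values do not settle whether the numbers pair the libraries. The members, lists and other choices were made with earlier results of these data known. All members could be named; pathway genes were named when called with a 2-fold change, or as core receptor and kinase genes; other genes are said to be chosen afterwards, as were IL10RB, IFNGR2, UBA7 and STAT3. Some pathway genes are counted but not reported singly here. Chromosomes, neighbours and promoters came from RefSeq GRCh38.p14, shared 50-base words from GENCODE v29. The limma script was tested on simulated data. It recovered 37.3% to 40.3% of 1.5-fold and 58.2% to 71.6% of 2-fold changes over the 3 comparisons. A gene that was not called may therefore still differ. Python 3.11.15, pandas 2.3.3, scipy 1.17.1 and matplotlib 3.10.9 made tables and figures.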

Additional observations from a re-analysis of the deposited data

Results flagged for a closer look

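Of the genes followed singly here, some chosen after their values were seen, 21 changed differently from parental cells in HRD and in HRA. This was tested in limma as the direct difference of HRD and HRA, with the adjusted p-values given in the report for the main ones. In that comparison 33.3% of the tested interferon-stimulated genes and 30.5% of the tested pathway genes were called, beside 30.1% of all genes tested. Among the interferon-stimulated genes the log2 difference, HRD minus HRA, was 1.18 for IFIT2, 1.11 for OASL, 1.20 for USP18 and 0.40 for HERC6. It was 1.23 for IFITM2, 1.01 for IFITM3 and 1.05 for IFI16. Negative differences were found for BST2 (−0.39), CMPK2 (−5.18), IFI35 (−1.05) and TRIM22 (−0.36). BST2 is the case in which both lines were above parental cells and HRA the more so. Of the pathway genes, IFNGR1 (0.34) was higher in HRD than in HRA cells. FCGR1A (−1.64), UBE2L6 (−1.60), DHX58 (−1.11), UBA7 (−0.59), STAT3 (−0.69) and JAK1 (−0.31) were lower. Of the neighbouring genes chosen after their values were seen, MNDA (1.56) and AIM2 (2.37) were higher and RNF144A (−6.95) was lower in HRD than in HRA cells. The sizes for CMPK2 and RNF144A rest on 1 read each in HRD cells and move with the pseudocount.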

How the results depend on the processing

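Over the alternatives no called gene changed direction. Of the values of the interferon-stimulated genes under alternatives, 1865 stayed on the same side of the threshold, 81 lost it and 31 gained it. HRD rises over parental numbered 9 by DESeq2 and 9 with the replicate block, against 5; HRD was higher than HRA in 4 genes without the filter, against 7. Without replicate 2 of every group, HRA rises numbered 1, HRD falls 2 and HRD-over-HRA genes 4. Leaving out single libraries gave 1 to 2 rises and 2 to 3 falls for HRA against parental, 4 to 8 and 3 to 5 for HRD against parental, and 3 to 8 and 2 to 4 for HRD against HRA. Of the pathway genes, 1 fell in HRA cells by DESeq2, with the block and with only the 2 groups fitted, against 0; HRD was above HRA in 5 without the variance trend, and without replicate 2 of every group 7 rose in HRA and 11 in HRD cells, with 2 higher and 5 lower in HRD than HRA. Single libraries gave 7 to 14 rises and 0 to 1 falls in HRA, 11 to 18 rises in HRD, and 3 to 8 higher and 6 to 10 lower in HRD than HRA. The cause of these shifts was not tested. CMPK2 in HRD against parental cells ranged from log2 −6.15 (DESeq2) to −2.26 (pseudocount 5), and was −4.76 without parental replicate 3. Same-numbered HRD and parental libraries correlated at −0.08, 0.26 and 0.29, and HRD and HRA libraries at −0.03, 0.41 and 0.23. HRD replicates 2 and 3 thus shared deviations with the same-numbered libraries, whereas HRD replicate 1 did not. With the block, IFITM1 (adjusted p = 0.0143), IFITM2 (0.0466), IRF7 (0.0472) and SP110 (0.0471) were also called in HRD against parental cells. Total-read scaling moved the median of all genes by 0.04 or less. Depth limits the 7 untested genes, with 1 to 61 reads each.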

Other observations

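APOBEC3G and APOBEC3F, interferon-inducible cytidine deaminases on chromosome 22, were chosen after their values were seen because replicate 2 stood apart in all 3 groups. APOBEC3G had 616, 1604 and 447 normalized reads in HRA cells, 519, 1207 and 579 in HRD cells and 694, 2060 and 800.4 in parental cells. Its replicate 2 was 3.02, 2.2 and 2.76 times the mean of replicates 1 and 3 in HRA, HRD and parental cells, and that of APOBEC3F was 2.21, 1.71 and 1.89 times that mean. Neither gene was called in any comparison by limma. Among the tested interferon-stimulated genes, IFIT2, IFIT3, IFITM1, IFITM2, PARP9, ISG20 and IFI35 were highest in replicate 2 of every group. By contrast, ISG15 was lowest in replicate 2 of the parental cells.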
